A study of Triticum aestivum with 6 samples.

Results

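The genes described here are 263 of the 127196 genes listed for wheat endosperm, namely all genes whose identifiers fall in 3 windows on the short arms of chromosomes 6A, 6B and 6D, set around the alpha-gliadin loci Gli-2. The 6A window holds 81 identifiers, from TraesCS6A01G045000 to TraesCS6A01G053000. The 6B window holds 91, from TraesCS6B01G061000 to TraesCS6B01G070000, and the 6D window holds 91, from TraesCS6D01G051000 to TraesCS6D01G060000. Within these limits every identifier was taken, whatever its level, but the windows were chosen with earlier results of these data known. The identifiers number the genes in order along the chromosome, and places in a window are counted from 1 in that order.

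RNA was sequenced from endosperm of field-grown winter wheat (*Triticum aestivum* L., cultivar Zhoumai36) collected 25 days after anthesis, with 3 libraries from the innermost endosperm (IE) and 3 from the remaining endosperm (RE). IE is the pair of central lobe zones of the middle piece of the grain, and RE is all other endosperm of that piece, in which starchy endosperm is mixed with the living aleurone. They were separated under a stereomicroscope once the pericarp was off. All 6 libraries share cultivar, age and dissection, and the methods describe the replicates as biological. The study grew its wheat under low or high nitrogen fertilizer and sequenced both regions under each level. The labels give no nitrogen level for the libraries used here, and none was assigned. Whether they share a nitrogen level is therefore not known from the labels. Since tissue pieces were sequenced whole, fewer cells of a type and less RNA per cell cannot be told apart.

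Gliadins are monomeric prolamins, the storage proteins that the starchy endosperm deposits in protein bodies, and in dough they contribute viscosity and extensibility. Alpha-gliadins are encoded at the Gli-2 loci by families of closely related genes without introns, which lie near each other and include many pseudogenes. They also carry peptides known to trigger coeliac disease. None of the 263 identifiers was paired with a gene name in the reference table used (0 matched, assembly IWGSC CS RefSeq v2.1). Which of them encode alpha-gliadins was therefore not assigned, and the genes are named by identifier, level and place. No list of aleurone or starchy endosperm markers was set by identifier, so the dissection was not checked against markers.

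Levels are given as FPKM, the fragments on a gene scaled by its length and by the total of the library. The total of fragments used for this scaling, as recovered from the values, lay between 13959933 (IE replicate 3) and 21766392 (IE replicate 2). As an approximate upper limit for a count of 0, and not a strict maximum, 3 fragments were taken. For a gene of 1 kb they correspond to between 0.138 and 0.215 FPKM. Of the 263 genes, 86 were listed at 0 in all 6 libraries and 177 were above 0 in at least 1. The level required for a test, 0.5 FPKM averaged over the 6 libraries, was reached by 87 genes, 27 on 6A, 27 on 6B and 33 on 6D. The 90 genes that were above 0 but below this level had a median of 0.108 FPKM and at most 53 fragments in a library.

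The 6A and 6B windows each hold a short cluster of very abundant transcripts, and the 6D window holds none. Genes that averaged 500 FPKM or more are called abundant here, a level that 220 genes of the whole table reached. There were 10 of them in the windows, 6 on 6A and 4 on 6B. On 6A, they lay within 8 consecutive identifiers, from TraesCS6A01G049100 to TraesCS6A01G049800 (places 42 to 49). On 6B, they lay within 5 consecutive identifiers, from TraesCS6B01G065600 to TraesCS6B01G066000 (places 47 to 51). The 20 identifiers on either side of the 6A and 6B windows held no gene above 27.6 FPKM.

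**Figure D1:**
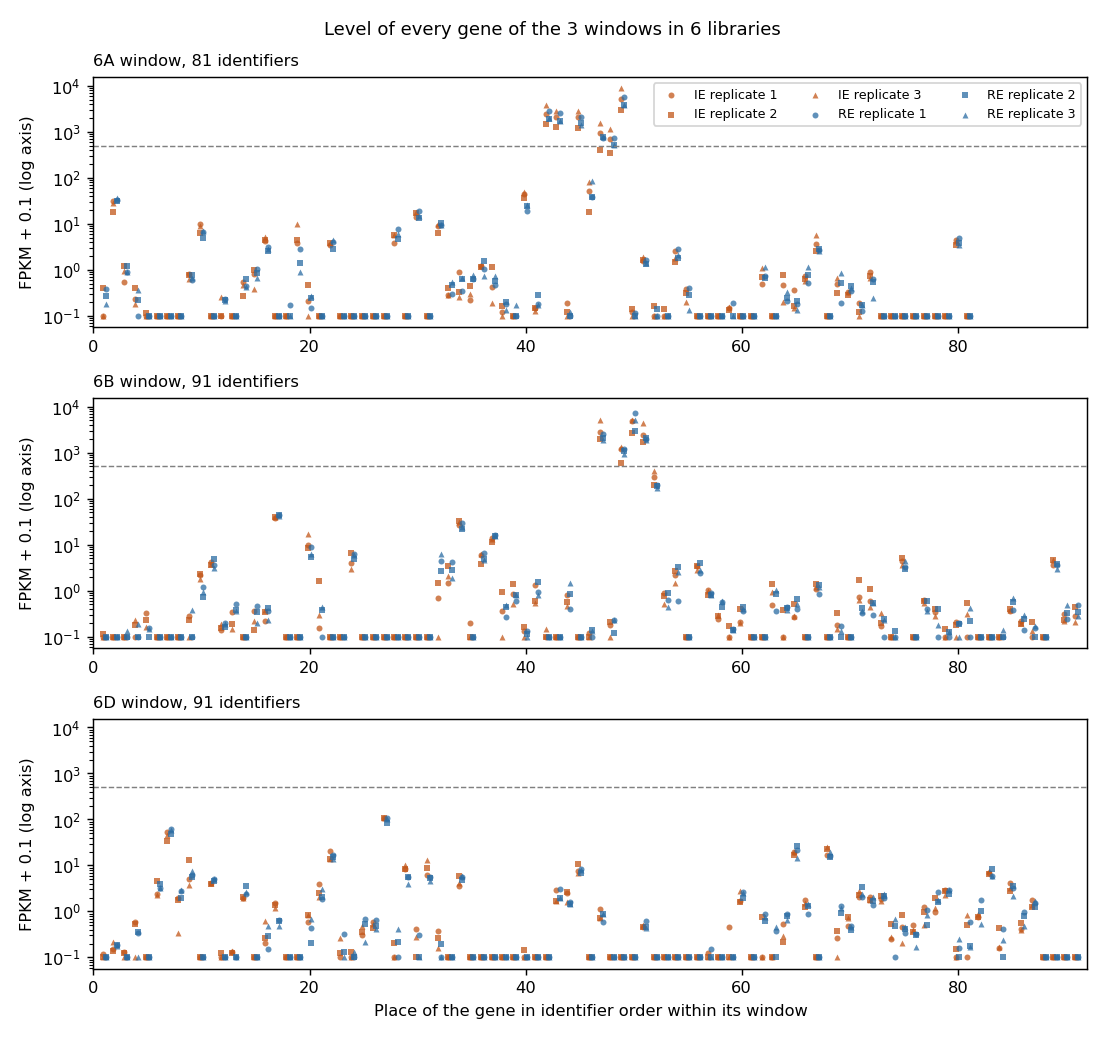
Level of each of the 263 genes (FPKM + 0.1, log axis) against its place in identifier order, with a panel for each window, a point for each of the 6 libraries and the dashed line at 500 FPKM. The 6A and 6B windows each show 1 narrow group of points above the line, of 6 and 4 genes, and the 6D window shows none.

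The most abundant gene of the windows was TraesCS6A01G049800, which ranked 39 among all genes listed. It was expressed at 5250, 2948 and 8716 FPKM for IE replicates 1, 2 and 3, and RE replicates 1, 2 and 3 had 5598, 3905 and 3802 FPKM. The range of IE enclosed that of RE, with IE replicate 3 highest and IE replicate 2 lowest of the 6 libraries. The log2 ratio of IE to RE, from limma with its standard error (SE), was 0.23 (SE 0.46, limma adjusted p = 0.895), and without IE replicate 3 it was -0.15.

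TraesCS6A01G049100 was expressed at 2491, 1440 and 3787 FPKM across the IE replicates and at 2792, 1915 and 1995 FPKM across the RE replicates. TraesCS6A01G049200 was expressed at 2041, 1277 and 2801 FPKM in IE and at 2605, 1698 and 1678 FPKM in RE. TraesCS6A01G049400 was expressed at 2115, 1204 and 2780 FPKM in IE and at 2125, 1562 and 1426 FPKM in RE. These 3 neighbours thus showed the same order in IE, with replicate 3 high and replicate 2 low, and the regions overlapped for each. TraesCS6A01G049600 was expressed at 927, 394 and 1532 FPKM in IE and at 732, 771 and 758 FPKM in RE, so that its RE libraries were nearly equal while its IE libraries spanned 3.89-fold. The least of the abundant genes on 6A, TraesCS6A01G049700, ranged from 352 to 1132 FPKM in IE and from 510 to 731 FPKM in RE. The log2 ratios of these 5 genes lay between -0.01 and 0.19 (limma adjusted p from 0.895 to 0.996). For TraesCS6A01G049200, the value of -0.01 became 0.12 with median-ratio scaling of the libraries.

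The identifiers between these genes were far less abundant. TraesCS6A01G049500 had a mean of 51.5 FPKM and ranged from 18.2 to 83.6 FPKM, with IE replicate 2 again lowest. TraesCS6A01G049300 had a mean of 0.0216 FPKM. The next identifiers after the cluster, TraesCS6A01G049900 and TraesCS6A01G050000, had means of 0.0125 and 1.47 FPKM.

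On 6B, the most abundant gene was TraesCS6B01G065900, at 4815, 2604 and 5199 FPKM across the IE replicates and 7195, 2978 and 5065 FPKM across the RE replicates. It was highest in RE replicate 1, and its RE libraries spanned 2.42-fold, against at most 1.55-fold for the other 9 abundant genes. Its log2 ratio was -0.25 (SE 0.45, limma adjusted p = 0.888), and it changed direction when IE replicate 2 or RE replicate 1 was left out (0.07 and 0.05). TraesCS6B01G065600 was expressed at 2816, 1950 and 5168 FPKM in IE and at 2481, 2034 and 1895 FPKM in RE. TraesCS6B01G066000 was expressed at 2438, 1688 and 4456 FPKM in IE and at 1996, 2110 and 1869 FPKM in RE. In this pair, IE replicate 3 stood far above all other libraries. Their log2 ratios were 0.52 (SE 0.40) and 0.41 (SE 0.39), with limma adjusted p-values of 0.70 and 0.769. Without IE replicate 3 these fell to 0.14 and 0.03.

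TraesCS6B01G065800 was expressed at 1206, 582 and 1340 FPKM in IE and at 1195, 1093 and 934 FPKM in RE. Its log2 ratio was -0.12 (SE 0.36, limma adjusted p = 0.932), with 0.25 when IE replicate 2 was left out. TraesCS6B01G066100, the identifier that follows the cluster, was the next most abundant gene of the windows, with 290, 193 and 400 FPKM in IE and 197, 189 and 168 FPKM in RE. Here IE replicate 2 lay between the RE libraries and the other IE libraries lay above them (log2 ratio 0.61, SE 0.29, limma adjusted p = 0.539). The next identifier, TraesCS6B01G066200, had a mean of 0.589 FPKM.

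The abundant genes differed more between replicates of IE than between replicates of RE. The standard deviation of log2 levels over the 3 IE libraries had a median of 0.70 for the 10 abundant genes, against 0.29 over the 3 RE libraries, and it was larger in IE for 9 of 10 (all except TraesCS6B01G065900). For the 77 less abundant tested genes of the windows, called flanking genes below, the medians were 0.32 in IE and 0.27 in RE. Over all 220 genes of at least 500 FPKM the medians were 0.61 and 0.24, and over the 51830 genes tested they were 0.41 and 0.30. IE replicate 3 was the highest library for 9 of the 10 abundant genes and IE replicate 2 was the lowest for 9 of 10, and 8 genes showed both. Both were seen for 17.7% of the 220 abundant genes of the table and for 2.60% of the flanking genes. The total of fragments moved with this order, being lowest in IE replicate 3 and highest in IE replicate 2. The share of summed FPKM in the 100 most abundant genes of a library moved too, from 62.8% in IE replicate 3 to 52.5% in IE replicate 2. The part of depth and of composition in the spread was not tested.

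**Figure D2:**
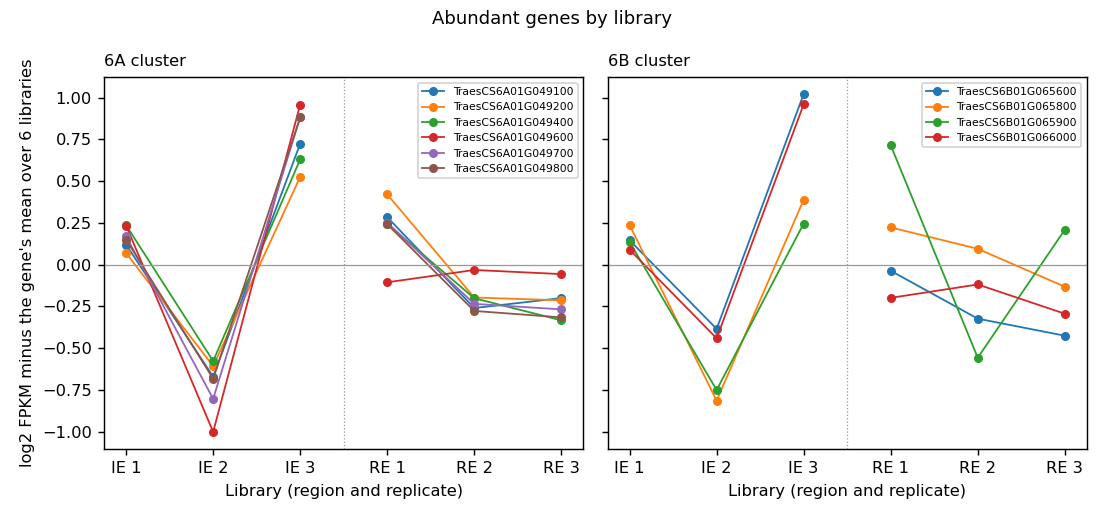
Log2 FPKM of each abundant gene minus its own mean over the 6 libraries, for the 6 genes of the 6A cluster and the 4 genes of the 6B cluster. Lines join the libraries of a gene within a region and show no order in time. IE 2 is the lowest library for 9 of the 10 genes and IE 3 the highest for 9 of 10, while most genes vary less between the RE libraries.

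The proportions within the 6A cluster varied less between libraries than its summed level. TraesCS6A01G049800 made up between 37.4% and 42.0% of the summed FPKM of the 6A cluster in every library, and TraesCS6A01G049100 between 18.3% and 19.6%. The ratio of the former to the latter lay between 1.91 and 2.30 in the 6 libraries. The share of TraesCS6A01G049600 varied most for its size, from 5.02% to 7.45%. The proportions of the 6B cluster were less even. TraesCS6B01G065900 made up between 32.2% of the 6B cluster in IE replicate 3 and 55.9% in RE replicate 1, and its ratio to TraesCS6B01G065600 ran from 1.01 to 2.90. By contrast, the ratio of TraesCS6B01G065600 to TraesCS6B01G066000 lay between 0.964 and 1.24.

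The lengths recovered from the FPKM steps were alike on 6A, where the 6 abundant genes were between 1035 and 1161 bp long. On 6B, they were 880 bp for TraesCS6B01G065600, 1101 bp for TraesCS6B01G065800, 843 bp for TraesCS6B01G066000 and only 390 bp for TraesCS6B01G065900. The abundant genes had between 8683 and 131416 fragments in each library, so that counting error is small beside the spread between replicates. How the authors counted reads that match several genes is not given in the sources used here, and reads from near-identical copies could have been divided between these genes in ways that the values do not show.

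To compare the windows of the 3 subgenomes, the FPKM values of each window were summed. The 6A window summed to 13708, 7751 and 20989 FPKM over IE replicates 1, 2 and 3, and RE replicates 1, 2 and 3 had sums of 14744, 10525 and 10377 FPKM. The 6B window summed to 11694, 7161 and 16698 FPKM in IE and to 13207, 8536 and 10065 FPKM in RE. For both windows the IE libraries enclosed the RE libraries, and the highest IE sum was 2.71-fold the lowest on 6A and 2.33-fold on 6B. The 6D window summed to only 299.9, 294 and 294 FPKM in IE and to 310.3, 272 and 289 FPKM in RE. Its libraries lay within 1.14-fold of each other.

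The mean sum on 6A was 14150 ± 6630 FPKM for IE against 11882 ± 2480 FPKM for RE (SD, n = 3 each). On 6B it was 11851 ± 4771 FPKM for IE against 10603 ± 2381 FPKM for RE (SD, n = 3 each). On 6D it was 296 ± 3.44 FPKM for IE against 291 ± 19.1 FPKM for RE (SD, n = 3 each). On the log2 scale, the differences between IE and RE were 0.16 on 6A, 0.10 on 6B and 0.03 on 6D. None stood out in two-sided exact permutation tests (p = 0.8, 0.9 and 0.7, and 0.9 for each after Benjamini-Hochberg adjustment over the 3 windows). In these tests 3 libraries against 3 cannot give less than 0.1. One library decides the direction of the larger sums, since without IE replicate 3 the differences were -0.19 on 6A and -0.19 on 6B, and without RE replicate 2 the difference on 6B was -0.04.

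**Figure D3:**
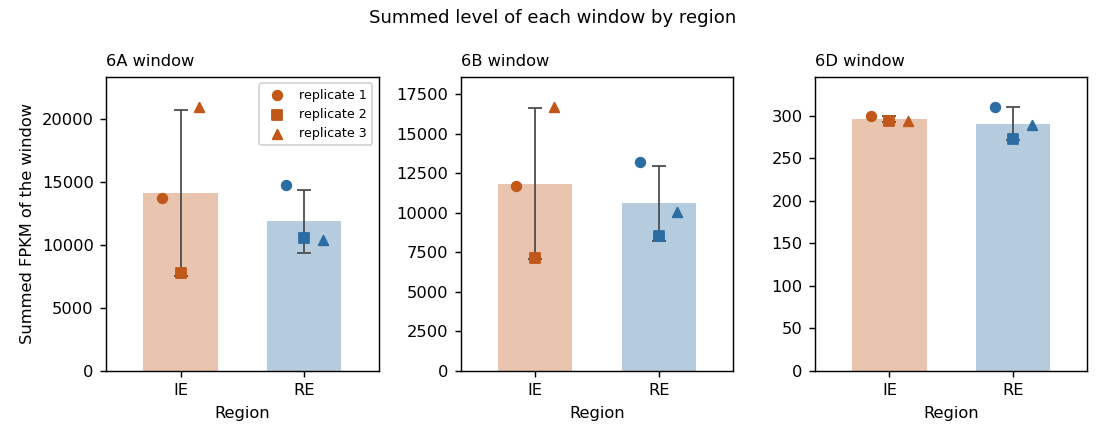
Summed FPKM of each window in IE and RE, with bars for the mean of 3 libraries, error bars for 1 SD and a point for each library, on axes of different height. The IE libraries spread over 2.71-fold on 6A and 2.33-fold on 6B and enclose the RE libraries, while all libraries of 6D lie between 272 and 310.3 FPKM.

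Together the 3 windows took 2.23 ± 0.969% of the summed FPKM in IE and 1.99 ± 0.375% in RE (SD, n = 3 each). Of the summed FPKM of the 3 windows, the 6A window held 53.2 ± 2.15% in IE and 52.2 ± 2.19% in RE, the 6B window 45.5 ± 1.56% and 46.5 ± 2.21%, and the 6D window 1.29 ± 0.588% and 1.30 ± 0.175% (SD, n = 3 each). The mean shares of the regions differed by less than these SDs. Two-sided exact permutation tests of the difference gave p = 0.7, 0.6 and 1, and 1 after adjustment over the 3 shares. These tests too cannot give less than 0.1. Counted as fragments in place of FPKM, the 6A window held 63.4 ± 1.72% in IE and 64.1 ± 1.35% in RE, and the 6B window 35.6 ± 1.30% and 34.9 ± 1.22% (SD, n = 3 each). The balance of 6A and 6B thus depends on the unit, since a fragment on a shorter gene counts more in FPKM. TraesCS6B01G065900 (390 bp), TraesCS6B01G066000 (843 bp) and TraesCS6B01G065600 (880 bp) are shorter than every abundant gene of 6A.

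The 6D window had no gene of at least 500 FPKM, and its most abundant gene had a mean of 102 FPKM. The 14 identifiers from TraesCS6D01G055500 to TraesCS6D01G056800, at places 46 to 59 and thus near the places of the clusters in the other windows, had means of at most 0.720 FPKM, and 10 of them were listed at 0 in every library. This stretch was picked after the values were seen. Elsewhere on 6D, 4 genes reached 500 FPKM, all outside the window. The highest of them, TraesCS6D01G000200, had a mean of 29936 FPKM. The low sum on 6D is therefore that of the window and not of the chromosome.

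The most abundant gene of the 6D window was TraesCS6D01G053600, at 105, 107 and 107 FPKM in IE and 107, 83.8 and 101 FPKM in RE. The IE libraries were almost equal and RE replicate 2 was lowest (log2 ratio 0.14, SE 0.20, limma adjusted p = 0.846). TraesCS6D01G051600 was expressed at 53.2, 34.3 and 44.7 FPKM in IE and at 62.2, 49.1 and 57.6 FPKM in RE, with a log2 ratio of -0.37 (SE 0.23, limma adjusted p = 0.628). Only IE replicate 1 reached the range of RE for this gene. TraesCS6D01G057400, TraesCS6D01G057700 and TraesCS6D01G053100 ranged from 13.4 to 26.3 FPKM over the 6 libraries, and their log2 ratios of -0.13, 0.32 and 0.05 had standard errors of 0.25, 0.22 and 0.24. The regions overlapped for each of these 5 genes.

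Between IE and RE, 0 of the 87 tested genes passed the adjusted p of 0.05 with a 2-fold change in limma (0.0% of all 51830 genes tested), and the smallest adjusted p among them was 0.359. With limma's voom on recovered fragments the number was also 0. An unadjusted p of at most 0.05 was reached by 10 of the 87 genes and by 5203 of all 51830 genes tested. With a 2-fold change in addition there were 4 genes higher in IE, or 4.60%, beside 1.64% of all genes tested, and 2 genes lower in IE, or 2.30%, beside 4.11% of all genes tested. In both directions together these were 6.90% of the members and 5.75% of all genes. With a pseudocount of 1 in place of 0.1, 2 of these 6 genes remained, TraesCS6A01G046800 and TraesCS6B01G064100, or 2.30% beside 2.77% of all genes.

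Every IE library was above every RE library for 9 of the 87 genes, or 10.3%, beside 4.35% of all genes tested. Every IE library was below every RE library for 7 genes, or 8.05%, beside 11.9%. Together these 16 genes were 18.4% of the members tested, close to the 16.3% of all genes tested. All 16 were flanking genes, and 0 of the 10 abundant genes separated the regions, beside 39 of all 220 genes of at least 500 FPKM. With only 10 genes, a count of 0 does not set the abundant genes apart. The split depends on the scaling, with 12 genes above (13.8%) and 3 below (3.45%) after median-ratio scaling, beside 6.83% and 8.64% of all genes. Over all genes tested, the scaling also moved the counts with an unadjusted p and a 2-fold change from 850 higher and 2130 lower in IE to 1318 and 1873. With a library left out, fewer values have to be apart, and 22 to 32 members did not overlap. The highest count, without IE replicate 2, was 37.2% of the members beside 36.4% of all genes. Of the 87 genes, 5 reached the level for a test in 1 region only, namely TraesCS6A01G052100, TraesCS6B01G068000, TraesCS6D01G052600 and TraesCS6D01G052900 in IE and TraesCS6D01G057800 in RE, and 4 of them (all except TraesCS6D01G052900) are among the 16.

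The median log2 ratio was 0.15 for the 10 abundant genes, with 7 above 0 and 3 below, and 0.06 for the 77 flanking genes, with 41 above 0 and 36 below. Over all genes tested it was -0.12. The median of the abundant genes turned to -0.23 without IE replicate 3 and was 0.57 without IE replicate 2, so its direction rests on 1 library. Median-ratio scaling brought the median of all genes tested to 0.0047 and those of the abundant and flanking genes to 0.27 and 0.19, a shift of like size for each. With this scaling TraesCS6A01G049200 and TraesCS6B01G065800, at -0.01 and -0.12 before, lay at 0.12 and 0.00055. A 2-fold change was reached by 0 of the 10 abundant genes, beside 12.3% of the 220 genes of at least 500 FPKM, and by 7 of the 77 flanking genes, or 9.09%, beside 9.62% of all genes tested.

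**Figure D4:**
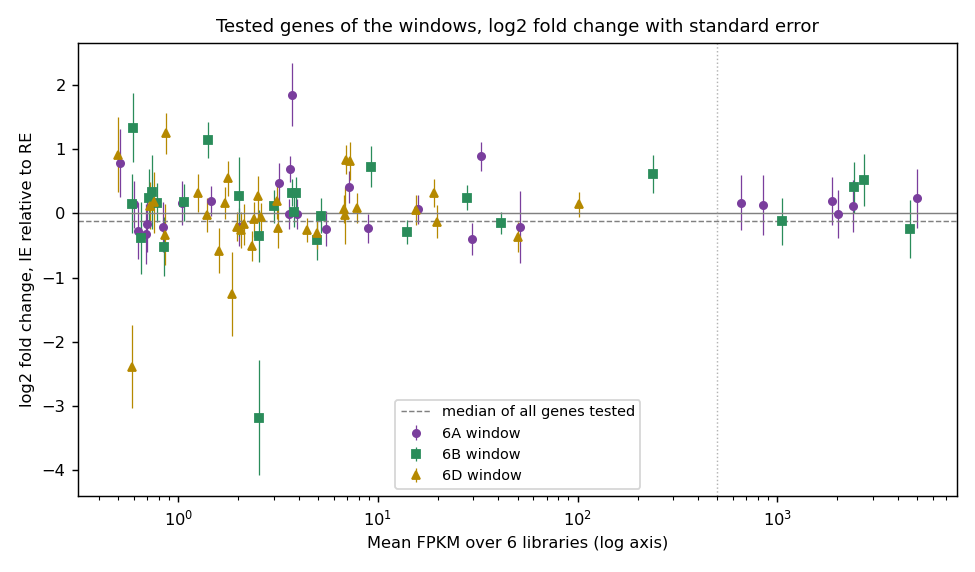
Log2 ratio of IE relative to RE for the 87 tested genes against their mean FPKM over the 6 libraries (log axis), with bars for 1 SE from limma, colours for the windows, a dashed line at the median of all genes tested (-0.12) and a dotted line at 500 FPKM. The 10 abundant genes lie between -0.25 and 0.52, and the 7 changes of at least 2-fold are all at means below 4 FPKM.

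Among the flanking genes, 4 share a recovered length of 654 bp and lie in all 3 windows, TraesCS6A01G046800, TraesCS6B01G062900, TraesCS6D01G053800 and TraesCS6D01G054000. The study lists these 4 for its comparison of nitrogen levels, which was not made here. TraesCS6A01G046800 was expressed at 3.74, 4.29 and 9.53 FPKM in IE and at 2.66, 1.29 and 0.803 FPKM in RE. Every IE library was above every RE library, with a log2 ratio of 1.85 (SE 0.49, limma adjusted p = 0.363) from 11 to 87 fragments per library. It was 1.44 without IE replicate 3 and 1.38 with a pseudocount of 1. TraesCS6D01G053800 was expressed at 8.33, 8.15 and 10.3 FPKM in IE and at 5.58, 5.40 and 3.94 FPKM in RE, and it also separated the regions (log2 ratio 0.84, SE 0.22, limma adjusted p = 0.363).

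TraesCS6D01G054000 was expressed at 6.18, 8.85 and 13.1 FPKM in IE and at 5.58, 5.32 and 4.38 FPKM in RE, with a log2 ratio of 0.81 (SE 0.29, limma adjusted p = 0.438). The regions did not overlap, though IE replicate 1 lay close to RE replicate 1. TraesCS6B01G062900 was expressed at 9.46, 8.29 and 17.1 FPKM in IE and at 8.67, 5.32 and 6.28 FPKM in RE. IE replicate 2 lay below RE replicate 1, so the regions overlapped (log2 ratio 0.73, SE 0.32, limma adjusted p = 0.510). All 4 genes were highest in IE replicate 3. None passed the adjustment over all genes, and reads that match several of them could be divided between them.

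TraesCS6A01G048900, 2 identifiers before the 6A cluster, was expressed at 44.1, 35.4 and 49.0 FPKM in IE and at 18.6, 24.6 and 25.9 FPKM in RE. Every IE library was above every RE library, and its log2 ratio of 0.89 (SE 0.22, limma adjusted p = 0.359) stayed between 0.75 and 1.02 with any library left out. In contrast to the genes of the cluster, its IE libraries spanned only 1.39-fold. The study's text names 3 storage protein genes by identifier, and the gliadin among them, TraesCSU01G153800, also lay higher in every IE library. It was expressed at 44.7, 31.9 and 50.4 FPKM in IE and at 21.1, 24.4 and 25.5 FPKM in RE (log2 ratio 0.82, SE 0.23, limma adjusted p = 0.363). The study names this gene for a difference between the regions, so its direction is not independent evidence. The ratio of TraesCS6A01G048900 to TraesCSU01G153800 lay between 0.882 and 1.11 in the 6 libraries, a pair chosen after the values were seen, and their recovered lengths were 1197 and 1125 bp.

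The 2 globulins that the study names, storage proteins of another class, did not separate the regions. The study reports both as higher in RE under high nitrogen, by its own test and p-value limit. No nitrogen level was assigned to the libraries used here, so the samples may differ. Both log2 ratios were also toward RE. TraesCS4D01G171800 was expressed at 160, 403 and 186 FPKM in IE and at 356, 372 and 547 FPKM in RE (log2 ratio -0.87, SE 0.38, limma adjusted p = 0.509). Its IE replicate 2 was the highest IE library, whereas IE replicate 2 was the lowest IE library for every abundant gene of the windows. TraesCS7D01G351300 lay between 0.663 and 6.63 FPKM in the 6 libraries (log2 ratio -0.77, SE 0.76, limma adjusted p = 0.772), and its log2 ratio ran from -1.58 without IE replicate 2 to -0.055 without IE replicate 3. Of these 3 storage protein genes, 0 passed the adjusted p in either direction.

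**Figure D5:**
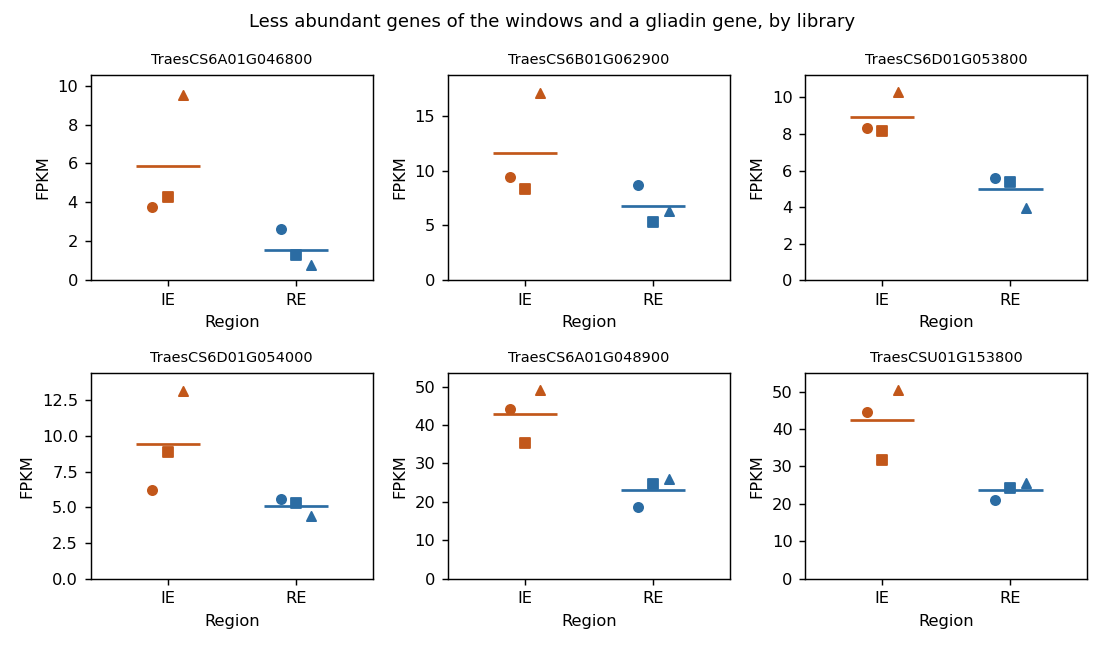
FPKM in each library (points) with the mean of each region (line) for the 4 genes of 654 bp, for TraesCS6A01G048900 and for the gliadin gene TraesCSU01G153800. The regions are apart for all except TraesCS6B01G062900, where IE replicate 2 (8.29 FPKM) lies below RE replicate 1 (8.67 FPKM).

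The 2 largest changes in the windows were toward RE and came from weakly expressed genes. TraesCS6B01G064100 was expressed at 0.583, 1.39 and 0 FPKM in IE and at 4.37, 2.59 and 6.22 FPKM in RE, from 0 to 82 fragments. The log2 ratio was -3.18 (SE 0.90, limma adjusted p = 0.363), with -2.07 without IE replicate 3 and -1.73 with a pseudocount of 1. TraesCS6D01G057800 was expressed at 0.161, 0.272 and 0 FPKM in IE and at 1.18, 0.833 and 1.07 FPKM in RE, a log2 ratio of -2.39 (SE 0.64, limma adjusted p = 0.363) that became -0.83 with a pseudocount of 1. TraesCS6D01G057800 reached the level for a test through RE alone (means of 0.145 FPKM in IE and 1.03 FPKM in RE), and without RE replicate 1 or RE replicate 3 it fell below it. For both genes every IE library was lower than RE, and the size of either change rests on the value added before the logarithm. TraesCS6D01G051700 overlapped between the regions, with 1.88, 1.71 and 0.232 FPKM in IE and 2.73, 1.88 and 2.78 FPKM in RE. Its log2 ratio of -1.25 (SE 0.65, limma adjusted p = 0.569) was -0.41 without IE replicate 3.

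In the other direction, TraesCS6B01G068000 was expressed at 0.616, 1.63 and 0.528 FPKM in IE and at 0.226, 0.318 and 0.256 FPKM in RE. Its regions did not overlap (log2 ratio 1.34, SE 0.54, limma adjusted p = 0.473), and with a pseudocount of 1 the log2 ratio was 0.56. It reached the level for a test through IE alone (means of 0.926 FPKM in IE and 0.267 FPKM in RE), and without IE replicate 2 it fell below it. TraesCS6B01G061900 was expressed at 2.03, 2.17 and 1.68 FPKM in IE and at 1.07, 0.631 and 0.832 FPKM in RE, and TraesCS6D01G052600 at 1.43, 1.25 and 1.12 FPKM in IE and at 0.547, 0.514 and 0.372 FPKM in RE. Both were higher in every IE library (limma adjusted p = 0.359 for each), and the latter rests on 4 to 14 fragments per library. The genes above RE in every IE library were completed by TraesCS6A01G046500 and TraesCS6A01G052100, with log2 ratios of 0.69 and 0.79.

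Small differences in level made up the rest of the genes that lay below RE in every IE library. TraesCS6A01G045100, TraesCS6B01G062600, TraesCS6B01G064600, TraesCS6D01G052000 and TraesCS6D01G052300 had log2 ratios of -0.40, -0.15, -0.29, -0.26 and -0.51, at mean levels between 2.34 and 41.1 FPKM. For TraesCS6B01G062600, for example, the IE libraries lay between 37.5 and 40.5 FPKM and the RE libraries between 42.1 and 44.7 FPKM. It has the recovered length of TraesCS6D01G053600, 420 bp, and that gene did not separate the regions.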

How the data were processed

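Reads were filtered by Illumina's pipeline, then by fastp, and aligned to the genome of Chinese Spring (IWGSC1_popseq.31) by HISAT2, and the authors deposited FPKM values per gene. The program that counted reads, whether it used strand, and what it did with reads of several matches are not given in the sources used here. Low FPKM values are whole multiples of a step, from which the totals, the gene lengths and the fragments were recovered for 100% of the 86042 genes above 0 (within 2e-07 of each value).

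All 51830 genes averaging 0.5 FPKM or more were fitted with limma 3.58.1 in R 4.3.3 (eBayes with trend) on log2(FPKM + 0.1), with Benjamini-Hochberg adjustment. A call needs an adjusted p no higher than 0.05 together with a 2-fold change, where the study applied these limits to its p-value. The log2 ratio in the text is the IE mean minus the RE mean on this scale. Fold changes on this scale are understated for low genes. Sums and shares were compared by exact permutation tests in Python 3.11.15 with numpy 2.4.6 and pandas 2.3.3, and plots used matplotlib 3.10.9. Recovery and fit were tested on simulated data. An abundant gene has a mean of at least 500 FPKM, and a cluster has at least 3 of them with at most 2 other identifiers between neighbours. Alternatives changed the pseudocount, the filter, the scaling, the variance trend, the replicate block, the unit, the abundance limit, the gap and the libraries.

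The genes named are, per window, the 5 most abundant and the 2 flanking genes of largest change, the 4 genes in the study's nitrogen list and the 3 storage protein genes in its text. The rule as written took those 4 for a list of IE against RE, which was an error. Other genes were named after their values were seen. Members and lists were chosen with earlier results of these data known.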

Additional observations from a re-analysis of the deposited data

How the results depend on the processing

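The fit made 0 calls between the regions in each of its 14 alternatives, whose smallest adjusted p over all genes lay between 0.0566 and 0.628. The number of members passing an unadjusted p and a 2-fold change was 6 (6.90%, beside 5.75% of all genes). It was 2 with a pseudocount of 1 (2.30%, beside 2.77%) and 2 with a filter at a mean of 2 FPKM (3.51%, beside 5.07%). The number that did not overlap was 16, and it lay between 22 and 32 with a library left out. It was 32 or 37.2% without IE replicate 2, beside 36.4% of all genes. Without RE replicate 2 it was 25 or 28.7%, beside 25.5%. Fewer values have to be apart with any library left out. Why the count was highest without IE replicate 2 was not tested. A limit of 2000 FPKM left 6 abundant genes and 1 cluster. The log2 difference of the summed FPKM lay between -0.19 and 0.53 on 6A, between -0.19 and 0.42 on 6B and between -0.017 and 0.077 on 6D with a library left out. The causes were not tested. On 6D it was -0.012 with fragments scaled by the library total and -0.028 without the most abundant gene. The share of 6A differed by -0.68 percentage points and that of 6B by 0.74 when fragments were counted, and with a library left out the differences ran from -0.115 to 2.08 for 6A, from -2.12 to 0.0768 for 6B and from -0.329 to 0.249 for 6D. For single genes, TraesCS6A01G049200 had 0.12 with median-ratio scaling and 0.0019 with voom, and TraesCS6B01G065800 had 0.00055 with median-ratio scaling. With a library left out, 9 of the 27 named genes changed direction, over -0.15 to 0.63 (TraesCS6A01G049800), -0.22 to 0.48 (TraesCS6A01G049100), -0.27 to 0.29 (TraesCS6A01G049200), -0.073 to 0.53 (TraesCS6A01G049400), -0.32 to 0.66 (TraesCS6A01G049600), -0.58 to 0.069 (TraesCS6B01G065900), -0.35 to 0.25 (TraesCS6B01G065800), -0.37 to 0.060 (TraesCS6D01G057400) and -0.16 to 0.16 (TraesCS6D01G053100). None of these genes was called. Deviations of same-numbered libraries correlated weakly (0.11, 0.06 and -0.20). With 3 libraries per region, such values cannot decide whether the numbers pair the libraries. With a replicate block 0 genes were called. There 6 members passed the unadjusted p with a 2-fold change (6.90%, beside 6.48% of all genes). IE replicate 1 correlated best with its own number, while IE replicates 2 and 3 did not. The 90 genes under 0.5 FPKM rest on at most 53 fragments and were not tested.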
